A study of Homo sapiens with 8 samples.

Results

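The members of this group are 39 genes chosen by symbol from the 58395 rows of the deposited count table: genes that interferons induce, and genes of the MHC class I pathway. All 39 were found in the table, with DDX58 carried under its current symbol RIGI. Messenger RNA was sequenced from HEK293, a human embryonic kidney cell line, as 4 samples treated with serotonin at 1 µM for 1 h and 4 samples without added ligand, after 3 h without serum in the labels of all 8. Within each treatment, 2 of the 4 samples came from cells that stably overexpress HTR1E, a receptor for serotonin that lowers cyclic AMP through Gi proteins, and 2 from control HEK293 cells. The labels do not say whether replicates came from separate cultures or whether the stable line is 1 clone, so p-values measure the spread between these samples, which may be technical.

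The 8 count columns carry the treatment in their names, followed by A or B, with or without an R. Where the values of both columns of a letter and treatment are given, the one without the R comes first. The labels do not say what these letters mark, so columns were placed by treatment and none was placed in a cell line. The treatment contrast below therefore spans both cell lines, with the first letter as a term in the fit. Its fold changes are averages over both letters and need not describe the response under either. HTR1E itself was at 252.7 and 249 CPM (counts per 1000000 read pairs) in the 2 serotonin A columns and at 0.255 and 0.399 CPM in serotonin B and BR, against 202 and 202 CPM in the 2 no-ligand A columns and 0 in both no-ligand B and BR. These counts separated the columns by first letter; they were not used to place a column in a cell line, and levels by letter are given as a description without a test.

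Total counts ran between 5439082 and 9072278 read pairs, apart from no-ligand B with 2604885. Mitochondrial genes took 54.4% of counts in no-ligand B and 36.3% in serotonin BR, and 17.9% to 24.6% in the other 6 columns. Both of these columns therefore stood apart, and the main counts and the values that rest on them are also given without them. VIM ran between 219 and 511 CPM and NEFL between 18.6 and 35.1 CPM, both known to be expressed in HEK293. Of the other markers listed for HEK293, LIN28B ran between 18.5 and 61.8 CPM, PAX2 between 2.08 and 17.2 and NEFM between 0.384 and 5.84. Among the leukocyte markers, PTPRC had no count in any of the 8 columns. HLA-DRA reached at most 0.239 CPM, CD3E 0.384 and CD74 1.20, while CD14 ran between 0.384 and 9.84 CPM.

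Type I interferons signal through a receptor at the cell surface to the factor ISGF3, which contains STAT2 and IRF9 and binds the interferon-stimulated response element in the promoters of induced genes. The induced proteins sense or block viral RNA, modify proteins with ISG15 or ADP-ribose, and raise the supply of peptides on MHC class I molecules. Many of these genes also have a low level without interferon, and class I genes are expressed constitutively in most cells.

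The promoters of the 4 members whose levels differed most between the A and B columns, and of the 2 members with the largest positive and negative serotonin fold changes, are shown. Each holds the letters of the interferon response element. Each runs from 250 bases before the RefSeq start to 50 bases from it on, on build GRCh38.p14, 5′ to 3′ on the gene's strand, with capitals marking matches on either strand to the response element core, GAAA, any 2 bases and GAAA again; matches may overlap. They lie as follows: IFITM3 at chr11:320811-321110 on the minus strand, PARP14 at chr3:122680589-122680888 on the plus strand, OAS3 at chr12:112938224-112938523 on the plus strand, BST2 at chr19:17405581-17405880 on the minus strand, ISG15 at chr1:1013247-1013546 on the plus strand and DTX3L at chr3:122564088-122564387 on the plus strand.
IFITM3: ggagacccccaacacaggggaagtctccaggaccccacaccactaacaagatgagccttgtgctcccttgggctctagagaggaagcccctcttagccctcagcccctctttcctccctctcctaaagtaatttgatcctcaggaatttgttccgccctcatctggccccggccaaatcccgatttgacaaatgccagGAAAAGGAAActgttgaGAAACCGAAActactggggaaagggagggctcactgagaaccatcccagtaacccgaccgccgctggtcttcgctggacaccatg
PARP14: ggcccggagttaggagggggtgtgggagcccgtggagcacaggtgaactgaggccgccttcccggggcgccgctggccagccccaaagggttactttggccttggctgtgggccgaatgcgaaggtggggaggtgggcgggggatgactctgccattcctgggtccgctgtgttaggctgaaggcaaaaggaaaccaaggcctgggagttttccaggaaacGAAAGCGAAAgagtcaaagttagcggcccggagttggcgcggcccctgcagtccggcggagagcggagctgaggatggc
OAS3: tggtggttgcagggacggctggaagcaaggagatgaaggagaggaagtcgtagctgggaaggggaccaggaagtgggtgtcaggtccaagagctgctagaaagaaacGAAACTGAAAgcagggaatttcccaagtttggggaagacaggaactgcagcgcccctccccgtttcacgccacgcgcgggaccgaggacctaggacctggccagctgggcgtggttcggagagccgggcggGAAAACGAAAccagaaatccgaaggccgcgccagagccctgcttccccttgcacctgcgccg
BST2: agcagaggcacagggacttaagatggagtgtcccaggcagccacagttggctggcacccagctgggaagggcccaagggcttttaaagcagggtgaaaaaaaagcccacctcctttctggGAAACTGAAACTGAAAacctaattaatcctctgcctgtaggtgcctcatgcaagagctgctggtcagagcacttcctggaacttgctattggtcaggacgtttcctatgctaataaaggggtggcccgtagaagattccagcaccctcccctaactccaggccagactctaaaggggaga
ISG15: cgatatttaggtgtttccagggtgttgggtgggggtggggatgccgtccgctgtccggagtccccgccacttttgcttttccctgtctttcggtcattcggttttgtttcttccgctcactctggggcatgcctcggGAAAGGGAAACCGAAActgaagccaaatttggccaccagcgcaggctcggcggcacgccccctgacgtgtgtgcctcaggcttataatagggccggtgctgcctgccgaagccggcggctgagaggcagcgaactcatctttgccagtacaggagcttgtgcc
DTX3L: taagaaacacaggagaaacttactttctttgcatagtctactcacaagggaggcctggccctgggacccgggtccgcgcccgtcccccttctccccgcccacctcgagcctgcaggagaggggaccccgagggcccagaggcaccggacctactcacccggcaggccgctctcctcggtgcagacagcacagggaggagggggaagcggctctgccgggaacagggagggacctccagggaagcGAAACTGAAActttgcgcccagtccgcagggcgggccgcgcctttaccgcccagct
Of the 39 members, 34 had a promoter in the RefSeq table, and 21 of these 34 (61.8%) held a match, compared with 1255 of all 35116 promoters of the same length (3.57%). The last match in the window began 107 bases before the start in ISG15, 35 in IFITM3, 29 in PARP14, 12 in OAS3, 124 in BST2 and 6 in DTX3L. DTX3L and PARP9 lie on opposite strands with annotated spans that overlap at their 5′ ends, and their RefSeq starts are 446 bases apart. The PARP9 window (chr3:122564735-122565034) held no match, and it does not reach the match near the DTX3L start. Matches were not limited to members with every A column above every B column. Of those members, IRF9, PARP9, HLA-B and HLA-C held none, and IFITM1, MX1, SAMD9 and TAP1 held matches besides those shown. Where A and B overlapped, IFIH1, IFIT1, IFIT3, IFIT5, PARP12, IFI6, IFI27, IFI44, IFI44L, TRIM14 and B2M also held matches. RIGI, STAT2, IRF1, OAS1, UBE2L6, TRIM25, IFI35, PSMB8 and PSMB9 held none. A match is a run of letters and not evidence of binding, and a window without one says only that these letters are not in it.

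The first question was whether serotonin changed these genes. Of the 39 members, 31 had enough counts to be tested, and 0 of the 31 passed the threshold of 0.05 on the adjusted p in edgeR's quasi-likelihood test, with p-values adjusted by the Benjamini-Hochberg method over all 15779 genes tested. The share called over all those genes was also 0.0%. At an unadjusted p under 0.05, 1 of the 31 members passed, a share close to the 3.54% over all genes tested. DESeq2 and limma-voom also called 0 members. The fold changes of the members were centred near zero, with 15 above 0 and 16 below and a median log2 fold change of −0.0068, compared with −0.0047 over all genes tested. In 0 of the 31 did the serotonin columns and the no-ligand columns stand fully apart; over all genes tested every serotonin column was above every no-ligand column in 0.976% and below in 1.15%. Missing the threshold does not show that serotonin left these genes as they were.

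ISG15, a ubiquitin-like protein that is conjugated to other proteins, had the largest fold change of the group. The gene lies at chr1:1001138-1014541 on build hg38, the build of all gene positions given here. Its level, in CPM scaled by trimmed mean of M-values (TMM) factors and called normalised CPM below, was 21.3 and 7.54 normalised CPM in the 2 serotonin A columns and 41.3 and 89.1 in serotonin B and BR, against 16.7 and 13.3 in the 2 no-ligand A columns and 2.94 and 12.02 in no-ligand B and BR. The highest values were thus in serotonin B and BR and the lowest in no-ligand B, while the A columns of both treatments overlapped. The means were 39.8 ± 35.7 with serotonin and 11.2 ± 5.88 without ligand (SD, n = 4 each), and the log2 fold change was 1.38 ± 0.67 (SE, edgeR adjusted p = 0.724). Serotonin BR, with the highest level, and no-ligand B, with the lowest, are the columns with the highest mitochondrial shares. Without these 2 columns the log2 fold change was 0.60 ± 0.46 (edgeR adjusted p = 0.994). Without the filter on low counts, which brings the genes tested to 35617, ISG15 was called at an edgeR adjusted p of 0.00948, with 0.121% of all those genes called; no other setting tried for this contrast called it.

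IFI27, an interferon-induced protein of mitochondrial and nuclear membranes, was the member with an unadjusted p under 0.05. Its level was 9.52 and 9.21 normalised CPM in the 2 serotonin A columns and 13.1 and 11.1 in serotonin B and BR, against 6.80 and 9.42 in the 2 no-ligand A columns and 4.11 and 4.81 in no-ligand B and BR. All serotonin columns but the second A column exceeded every no-ligand column. Its log2 fold change was 0.75 ± 0.30 (SE, edgeR adjusted p = 0.724), and 0.61 ± 0.27 without no-ligand B and serotonin BR (SE, edgeR adjusted p = 0.994).

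DTX3L, a ubiquitin ligase that pairs with PARP9, had the largest negative fold change. Its level was 9.52 and 10.9 normalised CPM in the 2 serotonin A columns and 2.32 and 3.20 in serotonin B and BR, against 8.29 and 9.22 in the 2 no-ligand A columns and 11.2 and 5.13 in no-ligand B and BR. The A columns of both treatments were close together, and the spread was among the B columns, where both serotonin values were below both no-ligand values. The log2 fold change was −0.50 ± 0.39 (SE, edgeR adjusted p = 0.724). It was −0.17 ± 0.29 (SE, edgeR adjusted p = 0.890) without no-ligand B, and −0.13 ± 0.28 (SE, edgeR adjusted p = 0.998) without no-ligand B and serotonin BR, so its size and its rank in the group rest on no-ligand B.

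IRF7, a transcription factor that drives interferon genes, was at 13.8 and 9.55 normalised CPM in the 2 serotonin A columns and 10.2 and 19.4 in serotonin B and BR, against 14.7 and 13.5 in the 2 no-ligand A columns and 4.11 and 7.87 in no-ligand B and BR. The no-ligand B columns were lowest and serotonin BR highest, and its log2 fold change was 0.40 ± 0.37 (SE, edgeR adjusted p = 0.734). Without no-ligand B and serotonin BR it was −0.059 ± 0.23 (SE, edgeR adjusted p = 0.998). UBE2L6, the conjugating enzyme for ISG15, was a gene of few counts, at 1.73 and 2.51 normalised CPM in the 2 serotonin A columns and 2.45 and 1.68 in serotonin B and BR, against 1.91 and 2.06 in the 2 no-ligand A columns and 0.588 and 1.31 in no-ligand B and BR. Its treatments overlapped, with a log2 fold change of 0.43 ± 0.40 (SE, edgeR adjusted p = 0.740).

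**Figure D1:**
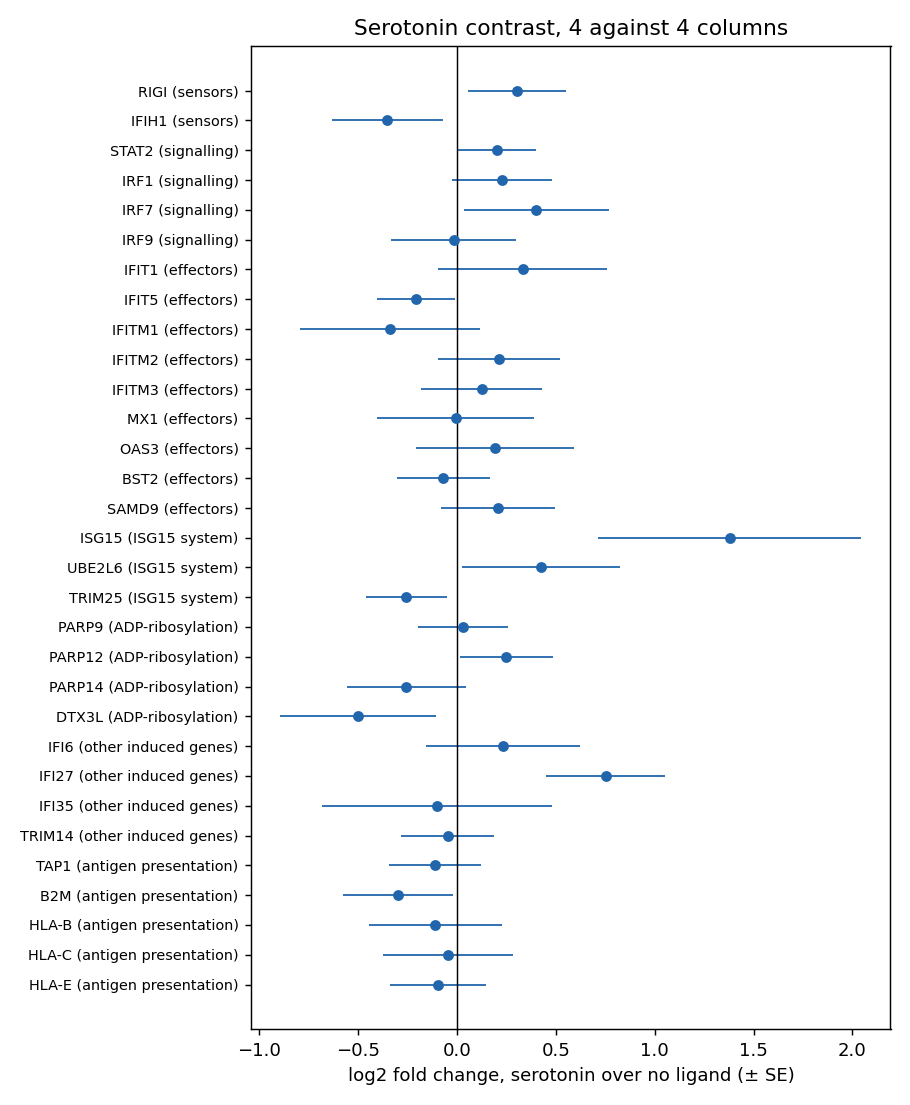
Log2 fold change of serotonin over no ligand for the 31 tested members, with points for the estimate, bars for ± 1 SE and roles in brackets, from 4 against 4 columns. The estimates lie between −0.50 for DTX3L and 1.38 for ISG15, and no member passed the adjusted threshold.

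By role, the fold changes went both ways in every class but antigen presentation. The sensors of viral RNA, RIGI and IFIH1, had log2 fold changes of 0.30 and −0.35. Among the 4 signalling genes, 3 were above 0 and 1 below, and among the 9 tested effectors 5 were above and 4 below. All 5 tested genes of antigen presentation were below 0, by 0.04 to 0.30 on the log2 scale, and none was called; HLA-B, HLA-C and HLA-E turned above 0 when no-ligand BR was left out. A further 59 genes of interferon signalling and class I presentation that are not members (receptors, kinases, other class I genes and induced genes) were listed for comparison. Of these 59, 47 could be tested, and 0 passed the adjusted threshold or an unadjusted p under 0.05, with a median log2 fold change of −0.091.

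Because the contrast spans both letters, the serotonin response under A was compared with that under B by an interaction term. edgeR called 0 of the 31 members, and 0.0% of all genes tested. At an unadjusted p under 0.05 there were 4 of the 31 members, a share below the 15.3% over all genes. These were ISG15, DTX3L, IRF7 and IFI27. For ISG15 the response under A minus that under B was −2.92 ± 0.80 on the log2 scale (SE, edgeR adjusted p = 0.298). Fitted alone, the B columns gave ISG15 a log2 fold change of 2.95 ± 0.55 (SE, edgeR adjusted p = 0.0510) and the A columns −0.022 ± 0.33 (SE, edgeR adjusted p = 1.000). HTR1E was at 0.399 CPM or less in every B column and at 201.5 CPM or more in every A column. The larger ISG15 estimate was thus in the columns with almost no HTR1E transcript, and the part of HTR1E in it was not tested. The B columns alone called 0.057% of all genes tested and no member. DESeq2 called the ISG15 interaction at an adjusted p of 0.0371, among 77 genes called of 15779 (0.488%), and edgeR without the filter on low counts at an adjusted p of 1.66e-05, among 443 of 35617 (1.24%). The differences for IRF7 and IFI27 were −1.41 and −1.19, and that for DTX3L was 1.64. Without no-ligand BR, so that the response under B rests on no-ligand B as its only untreated column, edgeR called 4 of the 31 members (ISG15, DTX3L, PARP14 and IRF7) and 3422 of the 16178 genes tested in that fit (21.2%). Without no-ligand B it called 0 members, with an edgeR adjusted p of 0.284 for ISG15. Without serotonin BR the ISG15 difference was −2.27 ± 0.87 (SE, edgeR adjusted p = 0.773). Without both no-ligand B and serotonin BR, where each treatment under B is 1 column assumed to vary like the A columns, the difference was −1.80 ± 0.59 (SE, edgeR adjusted p = 0.439) for ISG15, −0.62 ± 0.46 (SE, edgeR adjusted p = 0.743) for IRF7 and 1.36 ± 0.57 (SE, edgeR adjusted p = 0.513) for DTX3L, with 0 members called.

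**Figure D2:**
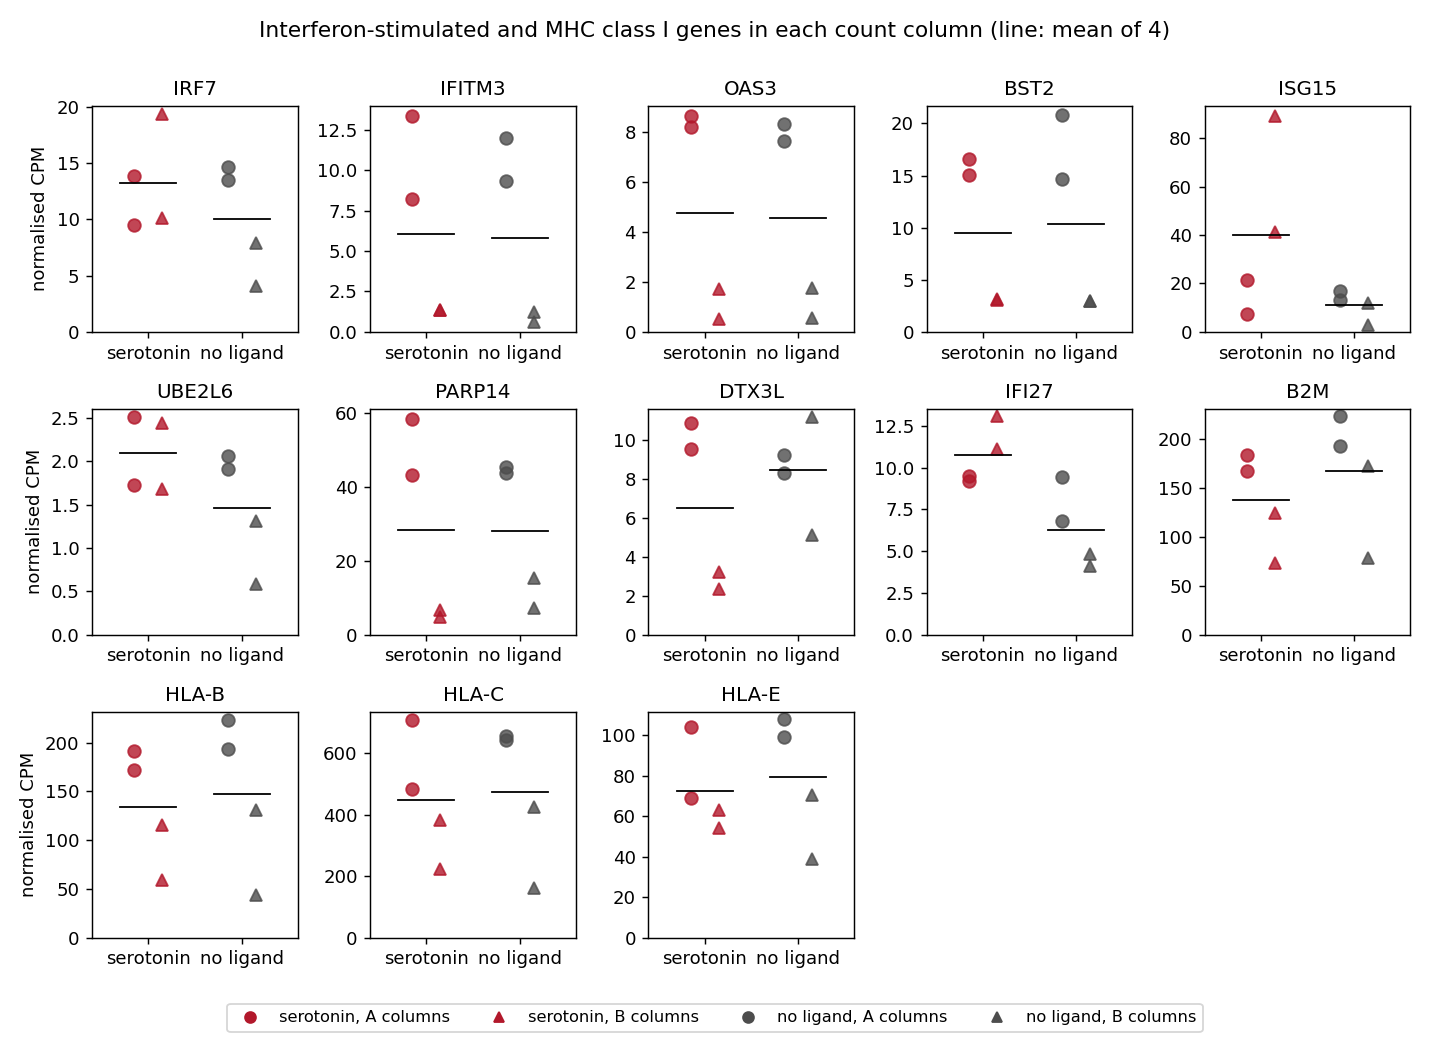
Normalised CPM (vertical axis, linear, from 0) of 13 members in each of the 8 columns, serotonin left and no ligand right, with circles for the A columns, triangles for the B columns, and a line at the mean of 4. ISG15 is highest in the serotonin B and BR columns at 41.3 and 89.1, while OAS3, BST2, IFITM3 and PARP14 separate by letter within both treatments.

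The members fell into genes that separated by letter and genes that did not. In 14 of the 39 members every A column was above every B column, and in 0 of the 39 every B column was above every A column. Among the 31 tested, 13 had all A columns above, against 10.3% of all genes tested, and 0 had all B columns above, against 7.93%. The filter on low counts lets in genes that are high in 4 columns only, so the tested members are not a neutral subset. The median difference, A minus B, of mean log2 level was 0.85 over the 31 members and 0.025 over all genes tested. In bulk RNA, fewer cells with a transcript and less of it per cell cannot be told apart. No test was run on these differences, because the labels do not tie the letters to the study's groups. The names do not say what the letters mark. HTR1E counts separated by letter too, with 201.5 CPM as the lowest of any A column and 0.399 CPM as the highest of any B column. The columns rich in HTR1E were thus the A columns, 2 in each treatment, as many as the samples of the overexpressing line. Cell line and any culture or handling that differs along with the letters cannot be told apart. The part of HTR1E in the levels of the members was not tested. Without no-ligand B and serotonin BR, 15 of the 31 had all A columns above, against 19.7% of all genes. The same values are compared there with fewer B columns, so this count could not fall. With DESeq2 size factors 13 of the 31 did, against 9.82% of all genes, and with total counts 16 did, against 19.0%.

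The antiviral effectors made up 8 of these 14, of which 13 were tested. The untested one was the effector OAS2, with 2 and 1 read pairs in the 2 serotonin A columns and 1 and 2 in the 2 no-ligand A columns, against 0 in all 4 B columns. IFITM3, a membrane protein that blocks virus entry, had the largest difference. It was at 13.4 and 8.21 normalised CPM in the 2 serotonin A columns and 12.01 and 9.32 in the 2 no-ligand A columns, against 1.35 and 1.35 in serotonin B and BR and 0.588 and 1.20 in no-ligand B and BR. The groups of columns were far apart, with means of 10.7 ± 2.37 in the A columns and 1.12 ± 0.362 in the B columns (SD, n = 4 each). IFITM1 and IFITM2 followed the same order, with means of 10.3 ± 2.56 in the A columns and 2.84 ± 1.66 in the B columns (SD, n = 4 each) and 12.8 ± 3.19 in the A columns and 4.42 ± 1.66 in the B columns (SD, n = 4 each). These 3 genes are close copies, and the annotated span of IFITM2 (chr11:307631-315272) covers that of IFITM1 (chr11:313506-315272), so reads could be split or lost between them.

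OAS3, which makes the 2-5A messenger that activates RNase L, was at 8.65 and 8.21 normalised CPM in the 2 serotonin A columns and 7.65 and 8.34 in the 2 no-ligand A columns, against 1.71 and 0.505 in serotonin B and BR and 1.76 and 0.546 in no-ligand B and BR. Every B column was below 2 normalised CPM and every A column above 7. The related OAS1 had 1 read pair in all 8 columns together and OAS2 had 6, so these 2 were not tested. BST2, or tetherin, which holds virus particles at the cell surface, was at 16.6 and 15.1 normalised CPM in the 2 serotonin A columns and 14.7 and 20.8 in the 2 no-ligand A columns, against 3.06 and 3.20 in serotonin B and BR and 2.94 and 2.95 in no-ligand B and BR. Its 4 B columns were close to each other in both treatments. MX1, a dynamin-like GTPase, and SAMD9, an antiviral factor, also had all A columns above, with means of 2.65 ± 0.739 in the A columns and 0.680 ± 0.536 in the B columns (SD, n = 4 each) and 8.19 ± 1.94 in the A columns and 3.20 ± 0.469 in the B columns (SD, n = 4 each). The IFIT genes, which bind viral RNA, did not separate: IFIT5 averaged 22.8 ± 3.07 in the A columns and 21.8 ± 4.07 in the B columns (SD, n = 4 each), IFIT1 averaged 2.68 ± 0.753 in the A columns and 1.81 ± 0.987 in the B columns (SD, n = 4 each), and IFIT2 and IFIT3 had too few counts for a test.

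The ADP-ribosylation genes split. PARP14, a mono-ADP-ribosyltransferase at chr3:122680618-122730840, was at 43.1 and 58.5 normalised CPM in the 2 serotonin A columns and 45.5 and 43.8 in the 2 no-ligand A columns, against 4.77 and 6.57 in serotonin B and BR and 15.3 and 7.21 in no-ligand B and BR. Its A columns lay well above, and among the B columns no-ligand B was the highest. PARP9, the partner of DTX3L, was at 20.4 and 29.3 normalised CPM in the 2 serotonin A columns and 21.8 and 24.0 in the 2 no-ligand A columns, against 8.07 and 6.57 in serotonin B and BR and 9.99 and 6.45 in no-ligand B and BR, and its columns also stood apart. DTX3L overlapped through no-ligand B at 11.2, and PARP12 averaged 14.3 ± 1.96 in the A columns and 15.8 ± 4.18 in the B columns (SD, n = 4 each).

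Of the signalling genes, IRF9, the DNA-binding subunit of ISGF3, had all A columns above, with means of 4.51 ± 0.816 in the A columns and 2.05 ± 0.390 in the B columns (SD, n = 4 each). STAT2, IRF1 and IRF7 overlapped, with STAT2 means of 39.5 ± 1.57 in the A columns and 35.5 ± 8.01 in the B columns (SD, n = 4 each) and IRF1 means of 7.05 ± 1.48 in the A columns and 6.71 ± 1.00 in the B columns (SD, n = 4 each). Both RNA sensors overlapped as well. In the ISG15 system all 3 genes overlapped; TRIM25, a ligase for ISG15 and ubiquitin, averaged 71.6 ± 4.05 in the A columns and 72.9 ± 18.3 in the B columns (SD, n = 4 each). The remaining induced genes (IFI6, IFI27, IFI35, IFI44, IFI44L and TRIM14) all overlapped.

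**Figure D3:**
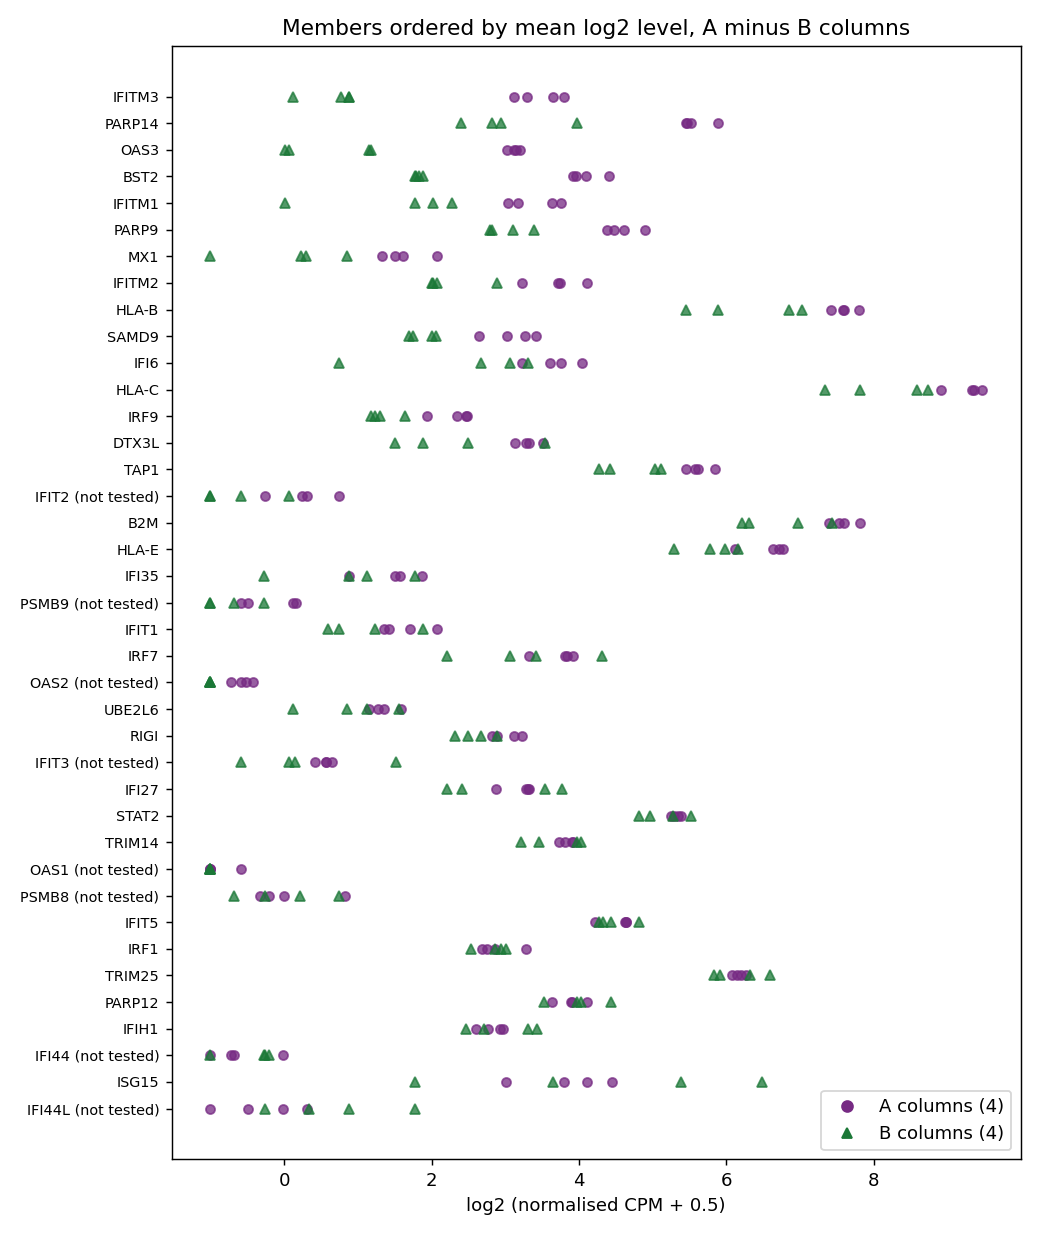
Log2 (normalised CPM + 0.5) of all 39 members in the 8 columns, ordered from the largest to the smallest difference of mean log2 level, A minus B, with circles for the 4 A columns and triangles for the 4 B columns. IFITM3, PARP14, OAS3 and BST2 stand at the top with no overlap, and ISG15 near the bottom spreads widest among the B columns.

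Class I genes were the most abundant members per length, and ISG15 was among the highest only by its mean. By RPKM (normalised CPM per kilobase of the file's gene length), the order of mean levels was HLA-C at 184, HLA-B at 46.2, ISG15 at 27.1, HLA-E at 25.5 and B2M at 25.0. This order depends on the file's lengths, which were 6089 bases for B2M and 942 for ISG15. Without division by length B2M was above HLA-B, with means of 137 normalised CPM with serotonin and 167 without ligand, against 134 and 148. The ISG15 means were 39.8 and 11.2 normalised CPM. The ranges over columns overlapped between neighbours from HLA-B down, since HLA-B ran between 14.3 and 73.0 RPKM and ISG15 between 3.12 and 94.5 RPKM. HLA-C ran between 64.7 and 282 RPKM, so its lowest column was also below the highest of HLA-B. The ISG15 mean rests on serotonin B and BR, at 43.9 and 94.5 RPKM, and in the latter ISG15 was above every class I member. In the other 6 columns ISG15 lay between 3.12 and 22.6 RPKM, below both HLA-E and B2M in each of them.

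HLA-C, a class I heavy chain at chr6:31268749-31272130, was at 708 and 482 normalised CPM in the 2 serotonin A columns and 643 and 657 in the 2 no-ligand A columns, against 383 and 224 in serotonin B and BR and 162 and 426 in no-ligand B and BR. HLA-B, another heavy chain, was at 192 and 172 normalised CPM in the 2 serotonin A columns and 194 and 223 in the 2 no-ligand A columns, against 115 and 58.8 in serotonin B and BR and 43.5 and 131 in no-ligand B and BR. In both genes every A column was above every B column, and within B the columns no-ligand B and serotonin BR were the lowest. Their serotonin log2 fold changes were −0.044 ± 0.33 (SE, edgeR adjusted p = 0.968) for HLA-C and −0.11 ± 0.34 (SE, edgeR adjusted p = 0.918) for HLA-B. Class I heavy chains are polymorphic close relatives, and the annotated HLA-B gene (chr6:31269491-31357188) overlaps HLA-C, so their separate levels are uncertain.

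B2M, the light chain common to all class I molecules, was at 184 and 167 normalised CPM in the 2 serotonin A columns and 193 and 224 in the 2 no-ligand A columns, against 125 and 73.7 in serotonin B and BR and 78.7 and 172 in no-ligand B and BR. No-ligand BR lay within the A range, so the letters overlapped. HLA-E, a heavy chain that presents signal peptides to natural killer cells, was at 104 and 68.8 normalised CPM in the 2 serotonin A columns and 99.2 and 108 in the 2 no-ligand A columns, against 63.0 and 54.2 in serotonin B and BR and 38.8 and 70.7 in no-ligand B and BR. Here no-ligand BR was above the second serotonin A column. Their serotonin log2 fold changes were −0.30 ± 0.28 (SE, edgeR adjusted p = 0.740) for B2M and −0.094 ± 0.24 (SE, edgeR adjusted p = 0.901) for HLA-E. Without no-ligand B and serotonin BR the log2 fold changes were −0.13 for HLA-C, −0.19 for HLA-B, −0.32 for B2M and −0.23 for HLA-E. TAP1, a subunit of the peptide transporter, separated by letter with means of 49.1 ± 5.79 in the A columns and 26.5 ± 7.82 in the B columns (SD, n = 4 each). The immunoproteasome subunits PSMB8 and PSMB9 had 32 and 18 read pairs in all 8 columns together and were not tested.

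The 4 members that separated most by letter had serotonin fold changes smaller than their SE. For IFITM3 the serotonin log2 fold change was 0.12 ± 0.31 (SE, edgeR adjusted p = 0.898), for OAS3 0.19 ± 0.40 (SE, edgeR adjusted p = 0.875), for BST2 −0.070 ± 0.23 (SE, edgeR adjusted p = 0.925) and for PARP14 −0.26 ± 0.30 (SE, edgeR adjusted p = 0.782).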

How the data were processed

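The values are raw counts of read pairs per gene, deposited by the authors as 1 table of 8 columns. Per the file headers they were made with featureCounts 2.0.1 on a GENCODE 28 annotation, reverse-stranded and by read pair. The command names no option for multi-mapping or overlapping reads, so reads that align equally to close copies can be lost from both. The file names mention marked duplicates. Build hg38, cutadapt 3.4 and STAR 2.7.8a are listed in the submitters' processing notes.

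Columns were grouped by the treatment word in their names. The titles number replicates and name the cell line, but the column names carry neither, and no column was placed by its values. Symbols came from a gene name table, which matched 57754 of 58395 rows. Serotonin was compared with no ligand in edgeR 4.0.16 (TMM factors, filterByExpr by treatment, robust quasi-likelihood F-test, first letter as a term), and the difference of responses by an interaction term. Each SE was derived from the F statistic. DESeq2 1.42.0 and limma 3.58.1 were alternatives. The fits were tested on simulated data. Levels are CPM over TMM-scaled library sizes, and 0.5 was added before log2. Values are given in full for the 5 tested members with the largest serotonin fold change, the 5 with the highest mean RPKM and the 4 with the largest difference between letters. The members and lists were chosen with earlier results of these data known. With 2604885 to 9072278 read pairs a column, members that reached about 10 counts, scaled for depth, in fewer than 4 columns could not be tested.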

Additional observations from a re-analysis of the deposited data

Results flagged for a closer look

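In a group of 4 columns, a value far from the other 3 was looked for in 78 groups (39 members in 2 treatments), and 3 were found; chance gives about 1 in 20 groups. STAT2 stood at 45.5 normalised CPM in serotonin BR, with the other serotonin columns between 37.7 and 38.7. TRIM14 was at 8.81 in no-ligand B, with the other no-ligand columns between 14.6 and 15.2. OAS1 was at 0.168 in the second serotonin A column, a single read pair, and at 0 in the other 3 serotonin columns. Serotonin BR and no-ligand B are the columns with the highest mitochondrial shares, 36.3% and 54.4%; the part of these shares in the STAT2 and TRIM14 values was not tested.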

How the results depend on the processing

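The serotonin contrast called 0 genes, and 0 with DESeq2 size factors, DESeq2, limma-voom, no term for the letter, only the A columns, no mitochondrial genes, without no-ligand B and serotonin BR, or without any 1 column (0 to 0). It called 43 genes without the low-count filter, with 1 member among them (ISG15), and 9 from only the B columns, with no member. A replicate block that paired columns sharing the rest of their name called 0 genes and 0 members and gave ISG15 a log2 fold change of 1.37; deviations of such pairs correlated at 0.010 under A and 0.16 under B, so the names are not shown to pair them. The interaction called 0 genes, 443 without the filter and 77 with DESeq2 (1 member each), 2 without no-ligand B and serotonin BR (0 members), and 0 to 3422 genes with 0 to 4 members when 1 column was left out. The tested members with all A columns above numbered 13 with TMM factors and with DESeq2 size factors, 16 with total counts and 15 without the 2 columns. The last of these counts could not fall, because it only leaves out B columns. Signs of the log2 fold changes that turned were, from only the A columns, −0.25 for IRF7, −0.022 for ISG15, 0.19 for PARP14 and 0.22 for DTX3L; from only the B columns, 0.10 for BST2, 0.051 for HLA-C and 0.10 for HLA-E; with limma-voom, 0.058 for HLA-C; with no term for the letter, −0.021 for IFITM3 and −0.012 for OAS3; and without no-ligand B and serotonin BR, −0.059 for IRF7 and 0.010 for PARP14. Leaving out 1 column gave 0.89 to 1.97 for ISG15, −0.047 to 0.33 for IFITM3, −0.047 to 0.31 for OAS3, −0.16 to 0.10 for BST2, −0.46 to 0.023 for PARP14, −0.34 to 0.23 for HLA-B, −0.26 to 0.26 for HLA-C and −0.25 to 0.048 for HLA-E; it also gave 0.069 to 0.65 for IRF7, −0.76 to −0.17 for DTX3L, 0.28 to 0.64 for UBE2L6, 0.58 to 0.98 for IFI27 and −0.46 to −0.028 for B2M. For the interaction it gave −4.50 to −2.27 for ISG15, −2.09 to −0.89 for IRF7, 1.14 to 2.24 for DTX3L and −1.41 to −0.94 for IFI27. The cause of these shifts was not tested. Leaving out the mitochondrial genes or the 2 columns, and the scaling by total counts, were chosen after seeing the data.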

Other observations

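Among the 47 tested genes of the wider interferon and class I list, 8 had every A column above every B column, against 10.3% of all genes tested, and 2 had every B column above every A column, against 7.93%. The 2 named here were chosen after their values were seen, and no test was run between the letters. ERAP2, an aminopeptidase that trims peptides for class I molecules, was at 21.1 and 24.1 normalised CPM in the 2 serotonin A columns and 19.4 and 24.7 in the 2 no-ligand A columns, against 7.58 and 5.22 in serotonin B and BR and 7.05 and 8.96 in no-ligand B and BR. MAVS, the adaptor below RIGI and IFIH1, went the other way, at 119 and 132 normalised CPM in the 2 serotonin A columns and 128 and 122 in the 2 no-ligand A columns, against 148 and 218 in serotonin B and BR and 196 and 133 in no-ligand B and BR.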
